A study of Homo sapiens with 6 samples.

Results

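The IQGAP scaffold genes and the calmodulin genes CALM2 and CALM3 were followed in HaCaT cells, an aneuploid, immortal line of human skin keratinocytes, with and without knockdown of IQGAP2. The members were the rows of the deposited table of gene levels whose gene name was IQGAP1, IQGAP2, IQGAP3, CALM2 or CALM3, which gave 5 of 12829 genes. The control group, labelled as normal control with the genotype WT, and the knockdown group, labelled shIQGAP2 with the genotype IQGAP2 knockdown, had 3 libraries each. All cells were grown in DMEM with fetal bovine serum. The labels do not say whether the control cells carried a hairpin of their own, or how many hairpins or clones there were. The labels call the libraries biological replicates without naming separate cultures, so p-values measure only how far these libraries spread, and that spread may be technical.

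IQGAP proteins are large scaffolds that hold together actin filaments, the small GTPases CDC42 and RAC1, signalling kinases and proteins of cell junctions. Several IQ motifs in the middle of each IQGAP bind calmodulin, the small calcium sensor that changes shape when it takes up calcium and so controls what many of its partners bind. IQGAP1 is found in most cell types, IQGAP2 is best known from liver and IQGAP3 from dividing cells. CALM2 and CALM3 lie on different chromosomes and encode the same protein.

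Because CALM2 and CALM3 encode 1 protein, their values are only separate measurements if reads can be assigned to a gene by its bases, so the coding sequences were compared. The principal transcripts of GENCODE v29 (build GRCh38) each had 450 coding bases. CALM2 and CALM3 were identical at 81.8% of these, and 79 of their 82 differences lay at the third base of a codon. The longest run of bases shared by the CALM2 and CALM3 transcripts was 17. The first 90 coding bases are shown, 5′ to 3′, with capitals at the 15 positions where the genes differ.
CALM2: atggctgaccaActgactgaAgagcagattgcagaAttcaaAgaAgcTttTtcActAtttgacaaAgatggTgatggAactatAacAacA
CALM3: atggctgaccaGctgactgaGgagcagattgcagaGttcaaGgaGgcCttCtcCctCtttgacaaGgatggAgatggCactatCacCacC
The capitals are spread along the whole stretch, so it holds no long run common to both genes. The longest shared run between principal transcripts of IQGAP1 and IQGAP2 was also short, at 20 bases. Only principal transcripts were compared, of 1302 bases for CALM2 and 2289 for CALM3. The lengths behind their FPKM are about 7114 and 5235 bases, and the rest of that sequence was not compared. Processed copies of these genes exist (4 named CALM2 pseudogenes in the annotation), and how the authors' counting treated reads that fit a gene and such a copy is not given in the sources used here.

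Levels are given as FPKM, fragments per kilobase of gene, scaled to the depth of the library. The whole reads behind the values could be recovered and summed to between 12901037 and 15360759 per library. Means are ± SD over 3 libraries (n = 3). A log2 change is the knockdown mean minus the control mean of log2(FPKM + 1), a scale on which changes of scarce transcripts look smaller than they are. Adjusted p-values are from limma over the 11214 genes whose mean reached 0.5 FPKM, with a threshold of 0.05. In this comparison 29.5% of the genes tested were called higher and 27.8% lower, and FPKM values of the groups did not overlap for 65.1%. The sum of FPKM was lower in the knockdown libraries (234624 to 248082) than in the control libraries (271372 to 274709), and lowest in knockdown replicate 2. Keratinocyte markers were abundant in all 6 libraries, with all 10 listed genes in the table and a summed level of 4968 to 5078 FPKM in the controls and 5406 to 5751 FPKM after knockdown. The highest of them, KRT14, went the other way, with means of 2575 FPKM in the controls and 2313 FPKM after knockdown. Of 22 markers of fibroblasts, melanocytes, immune and endothelial cells, 8 were in the table, led by COL1A1, PMEL, CD14 and VWF. Fibroblast markers (3 of 6) summed to 3.46 to 3.79 FPKM in the controls and 1.56 to 1.91 FPKM after knockdown, which was not shared by COL1A1 (1.24 and 1.44 FPKM) and came mainly from LUM (2.21 and 0.268 FPKM), and each of the other 3 lists to at most 1.28 FPKM in any library. The part of these cell types and of the lower FPKM sums in the results was not tested. In bulk RNA, fewer cells of a type and less RNA per cell cannot be told apart. 

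IQGAP2, the targeted scaffold (ENSG00000145703, GRCh38 chromosome 5, 76403249 to 76708132, plus strand), was scarce in control HaCaT cells and scarcer in the knockdown. Its level was 0.200, 0.198 and 0.190 FPKM in control replicates 1, 2 and 3, and 0.0196, 0.0328 and 0.0182 FPKM in knockdown replicates 1, 2 and 3. The groups did not overlap. These values rest on 67 reads in the 3 control libraries together and 8 in the 3 knockdown libraries. Per read recovered over all genes of the table, IQGAP2 stood at 12.2% of its control level (exact Clopper-Pearson 95% interval 5.07% to 25.5%, counting error only). IQGAP2 lay below the filter and was tested in the same limma model with it added (log2 change -0.22, SE 0.072, 95% interval -0.38 to -0.06, adjusted p = 0.0217). An exact permutation test, two-sided, returned p = 0.1, which is the smallest possible with 3 libraries against 3. The limma call was lost without any 1 control library and without knockdown replicate 3, with adjusted p of 0.0519 to 0.0556. Among the 12829 genes IQGAP2 ranked 12153rd by its control mean, and the gene the hairpin targets made up 0.426% ± 0.00674 of the summed IQGAP FPKM in control libraries. That SD understates the error. The control FPKM of IQGAP2 had a coefficient of variation of 2.79% where counting of its reads alone gives 21.2%. The lowest mean over all libraries of any gene in the table lay only slightly below that of IQGAP2. Scarcer genes are therefore absent, and the rank holds only among the genes listed. The knockdown mean of IQGAP2 alone lay below that lowest mean, so its place in the table rests on its control level. What this limit does to the test of IQGAP2 was not tested.

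IQGAP1, the widely expressed member that links CDC42 and RAC1 to actin and to cell junctions (ENSG00000140575, chromosome 15, 90388218 to 90502243, plus strand), was higher in every knockdown library. Control replicates 1, 2 and 3 gave 32.2, 30.6 and 30.1 FPKM, and knockdown replicates 1, 2 and 3 gave 47.1, 53.0 and 47.2 FPKM. The groups did not overlap, and knockdown replicate 2 was the highest. The mean rose from 31.0 ± 1.11 to 49.1 ± 3.38 FPKM, a ratio of 1.59 (log2 change 0.65, SE 0.056, 95% interval 0.52 to 0.77, limma adjusted p = 1.17e-05). Called rises of at least this size were seen for 387 genes, or 3.45% of those tested. By mean level IQGAP1 moved from rank 1484 to rank 794 of the 12829 genes.

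IQGAP3, a member known from proliferating cells (ENSG00000183856, chromosome 1, 156525405 to 156572604, minus strand), was at 14.9, 14.8 and 14.7 FPKM in the control libraries and at 13.6, 14.9 and 13.6 FPKM in knockdown replicates 1, 2 and 3. Knockdown replicate 2 lay above the controls and the other 2 below them. The control coefficient of variation was 0.467% where counting of reads alone gives 2.63%, so the control SD understates the error. The means were 14.8 ± 0.0691 and 14.0 ± 0.776 FPKM, and the difference did not pass limma (log2 change -0.07, SE 0.054, 95% interval -0.19 to 0.04, adjusted p = 0.256). Leaving out knockdown replicate 2 made it pass as lower (-0.12, limma adjusted p = 0.0377), as did removing the trend of change over gene length (-0.14, adjusted p = 0.0322). Rescaling the libraries to a common sum of FPKM turned its sign (0.081, adjusted p = 0.313). No direction is therefore given for IQGAP3.

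**Figure D1:**
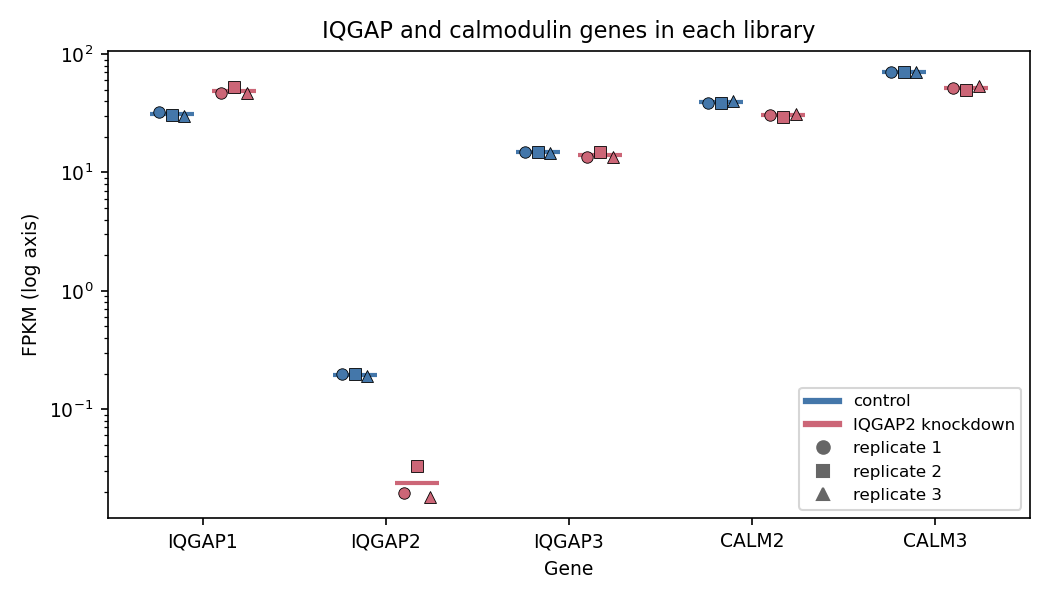
FPKM of the 3 IQGAP genes and of CALM2 and CALM3 on a log axis, with a point for each library and a bar for the mean of each group of 3. IQGAP1 is higher and IQGAP2, CALM2 and CALM3 are lower in all 3 knockdown libraries than in all 3 controls, while the groups overlap for IQGAP3.

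CALM3 (ENSG00000160014, chromosome 19, 46601074 to 46610793, plus strand) fell. The control libraries gave 70.6, 70.6 and 70.7 FPKM and knockdown replicates 1, 2 and 3 gave 51.7, 49.5 and 54.2 FPKM, without overlap. The knockdown mean of 51.8 ± 2.37 FPKM was 26.7% below the control mean (log2 change -0.44, SE 0.046, 95% interval -0.54 to -0.34, limma adjusted p = 3.52e-05). The control libraries lay closer together than the counting error of their reads, with a coefficient of variation of 0.0227% where counting alone gives 1.37%, so their SD of 0.0160 FPKM understates the error. The limma test uses a spread shared over genes.

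CALM2 (ENSG00000143933, chromosome 2, 47160082 to 47176601, minus strand) also fell. Its values were 38.7, 38.5 and 40.3 FPKM in control replicates 1, 2 and 3 and 30.4, 29.5 and 31.4 FPKM in knockdown replicates 1, 2 and 3. The highest knockdown library lay below the lowest control library. The mean went from 39.2 ± 1.01 to 30.5 ± 0.943 FPKM, 22.2% lower (log2 change -0.35, SE 0.046, 95% interval -0.45 to -0.25, limma adjusted p = 1.32e-04). As for CALM3, the lowest value was that of knockdown replicate 2.

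Ratios within a library do not depend on how libraries are scaled, and 3 were computed, each tested by exact permutation, two-sided. The exact permutation p was 0.1 for each, the smallest that 3 against 3 allow, and 0.1 adjusted over the 3. CALM2 and CALM3 kept nearly the same proportion, with a ratio of CALM2 to CALM3 of 0.548, 0.545 and 0.571 in control and 0.589, 0.597 and 0.580 in knockdown replicates 1, 2 and 3. The means were 0.554 ± 0.0141 and 0.588 ± 0.00869, and the groups did not overlap. That small difference (0.09 on the log2 scale) turned to -0.028 with the trend over annotated exon length removed. With the lengths that the FPKM values imply it stayed positive (0.033). Those lengths are above the annotated ones for both genes, at 7114 against 6466 bases for CALM2 and 5235 against 3667 for CALM3. Together CALM2 and CALM3 summed to 109.8 ± 1.02 FPKM in the controls and 82.2 ± 3.31 FPKM after knockdown, and both genes were still called lower with libraries rescaled to a common sum (-0.19 and -0.28, limma adjusted p = 0.00463 and 2.37e-04).

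The proportions of the scaffolds shifted as well. The ratio of IQGAP1 to IQGAP3 was 2.16, 2.06 and 2.04 in control replicates 1, 2 and 3 and 3.48, 3.55 and 3.47 in knockdown replicates 1, 2 and 3, a log2 difference of 0.74 without overlap. IQGAP1 made up 67.3% ± 0.676 of the summed IQGAP FPKM in control and 77.7% ± 0.218 in knockdown libraries, while the share of IQGAP3 went from 32.2% ± 0.674 to 22.2% ± 0.228. In all, IQGAP FPKM summed to 46.0 ± 1.18 in control and 63.2 ± 4.16 in knockdown libraries. The scaffold sum was higher and the sum of CALM2 and CALM3 lower in every knockdown library than in every control library. The ratio of CALM2 and CALM3 together to the 3 IQGAP genes was 2.31, 2.39 and 2.46 in control and 1.35, 1.16 and 1.41 in knockdown replicates 1, 2 and 3, a log2 difference of -0.87. The level of each of these ratios depends on the gene lengths that FPKM divides by, so it does not count transcripts. With principal transcript lengths the log2 difference of this last ratio was -0.90.

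**Figure D2:**
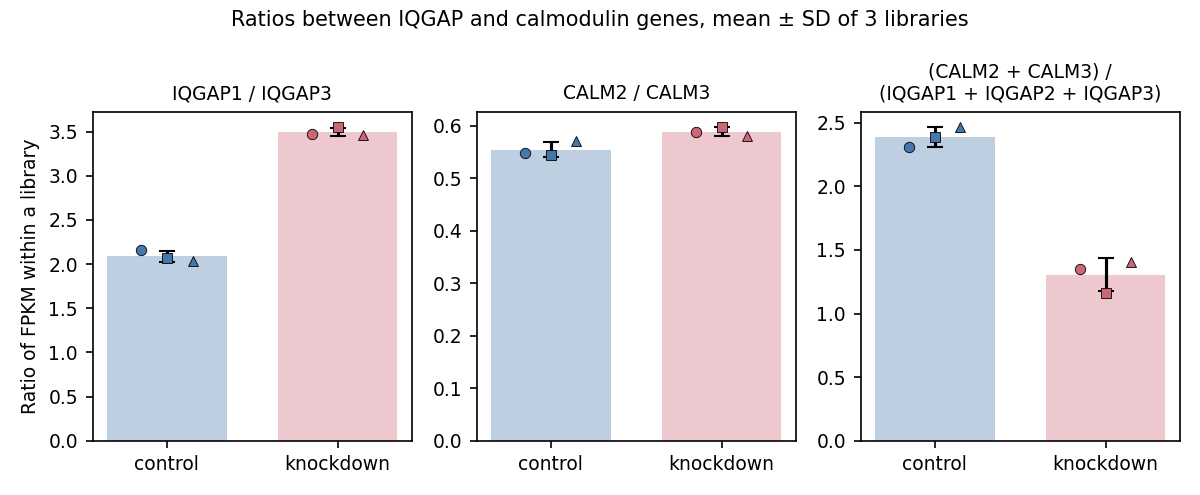
Ratios of FPKM between genes of the same library, with a point for each library and bars for the mean ± SD of 3 control and 3 knockdown libraries. IQGAP1 gains on IQGAP3, CALM2 to CALM3 moves least, from 0.554 to 0.588, and CALM2 and CALM3 together relative to IQGAP are lower in every knockdown library. The levels of the ratios depend on the gene lengths that FPKM divides by.

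The order of the genes by level depends on the gene length that FPKM divides by. In control libraries CALM3 was highest, followed by CALM2, IQGAP1, IQGAP3 and IQGAP2, and no 2 neighbours overlapped. In knockdown libraries IQGAP1 stood second, above CALM2, and its libraries (47.1 to 53.0 FPKM) overlapped those of CALM3 (49.5 to 54.2 FPKM). The lengths behind these values were about 11507 bases for IQGAP1, 7114 for CALM2 and 5235 for CALM3, against 7233, 1302 and 2289 bases in the principal transcripts. Per kilobase of principal transcript, CALM2 came first, with 216 ± 5.54 reads per 1000000 in control and 168 ± 5.19 in knockdown libraries, ahead of CALM3 with 163 ± 0.0360 and 119 ± 5.46. On that scale IQGAP1 was at 49.6 ± 1.77 in control and 78.7 ± 5.42 in knockdown libraries (75.5 to 85.0), below both calmodulin genes in every library. The choice of length leaves the change of each gene between groups as it is.

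Longer genes tended to be higher in the knockdown, so the 4 members above the filter were set beside genes of their own length. IQGAP1 has 11535 bases of annotated exon, and the 548 genes tested within 10% of that length had a median log2 change of 0.18, against 0.01 over all genes tested. IQGAP1, at 0.65, lay above 94.2% of them. CALM2, with 6466 bases, lay at -0.35 beside a median of 0.04 for 1410 genes of its length, and 9.43% of these were lower. CALM3, with 3667 bases, lay at -0.44 beside a median of -0.06 for 1155 genes, and 13.3% of these were lower. IQGAP3, with 6742 bases, lay at -0.07 beside a median of 0.05 for 1373 genes, and 31.8% of these were lower. The annotated length of CALM3 is below the 5235 bases behind its FPKM. Beside the 1360 genes whose implied length was within 10% of that, with a median of 0.03, 6.76% were lower than CALM3, and beside the 1297 genes of the implied length of CALM2, 7.48% were lower than CALM2. With the trend over annotated length removed, IQGAP1 was still called higher (log2 change 0.49, limma adjusted p = 6.88e-06) and CALM2 and CALM3 lower (-0.41 and -0.38, adjusted p = 5.60e-05 and 2.94e-05). With implied lengths, an alternative chosen after seeing the data, the changes were 0.51, -0.42 and -0.46 (adjusted p = 6.86e-06, 5.39e-05 and 1.81e-05), so whether CALM2 or CALM3 fell more depends on the length used.

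**Figure D3:**
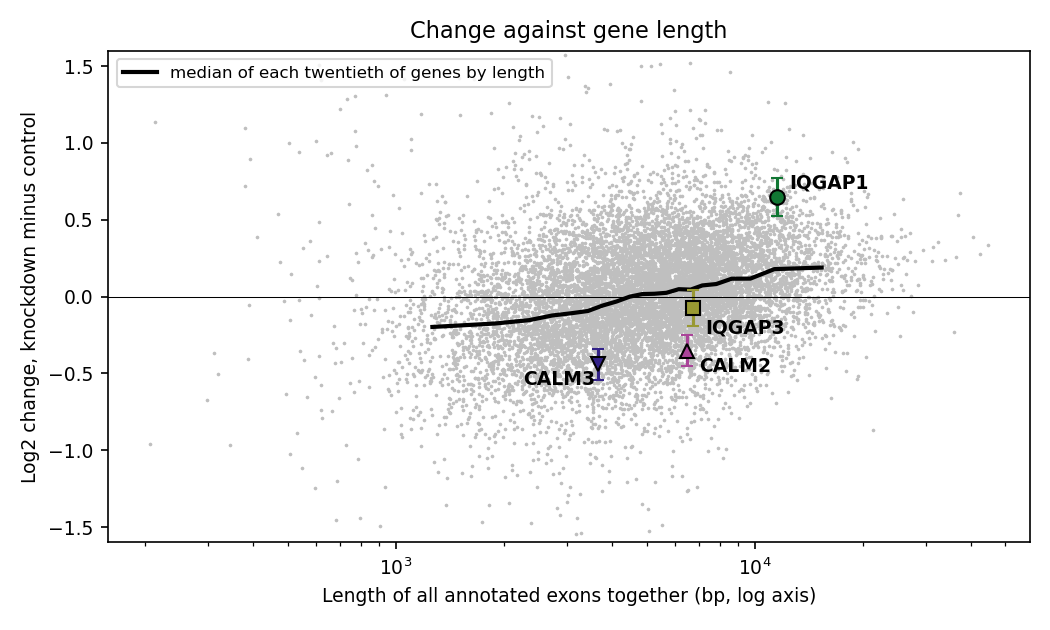
Log2 change of each gene tested against the length of its annotated exons (log axis, 11209 genes, 37 of them beyond the vertical range), with the median in bins of equal gene number along length as a line and the 95% interval of limma for the named genes. IQGAP1 lies above the median at its length, CALM2 and CALM3 lie below it, and the interval of IQGAP3 includes 0.

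Among the 4 members above the filter, 1 was called higher and 2 lower, against 29.5% and 27.8% of all genes tested, so the count of calls is not in itself unusual in these libraries. Of the 4 members above the filter, all but IQGAP3 had values that did not overlap between groups. That was so for 65.1% of all genes tested, so it does not set the members apart either. IQGAP2, which also did not overlap, lay below the filter and is not part of that share. IQGAP1, CALM2 and CALM3 kept their direction and their call in all 16 other settings. Log2 changes ranged over these from 0.49 to 0.81 for IQGAP1, from -0.42 to -0.19 for CALM2 and from -0.47 to -0.28 for CALM3. Without knockdown replicate 2, which held the highest IQGAP1 and the lowest CALM2 and CALM3 values, the changes were 0.59, -0.33 and -0.41.

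**Figure D4:**
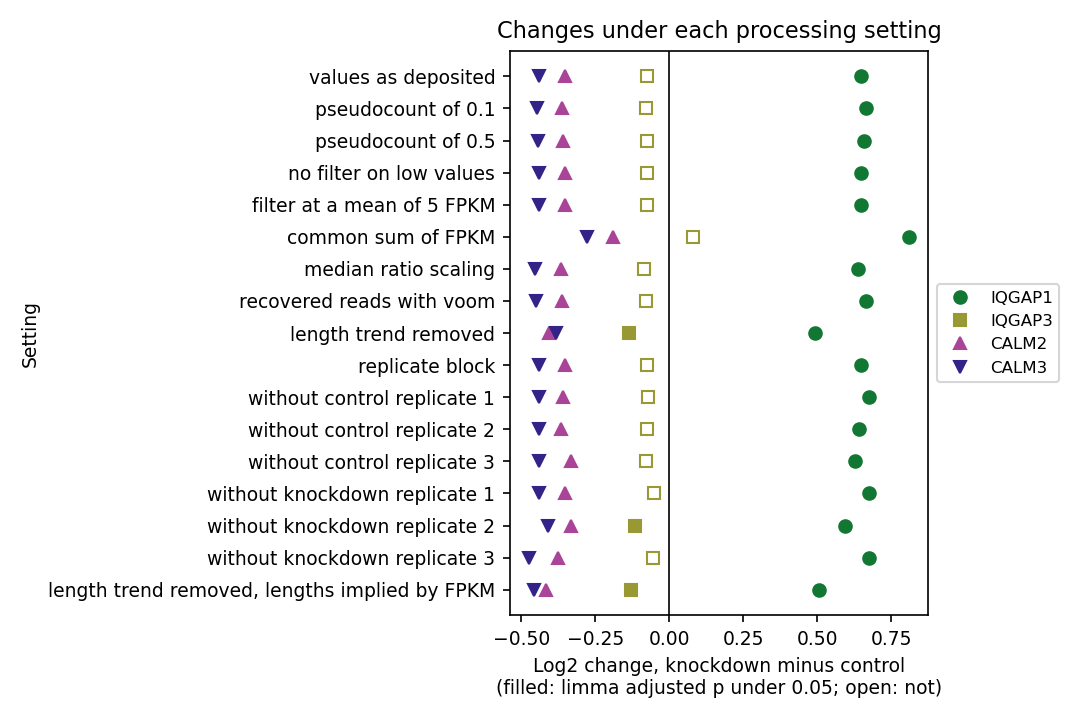
Log2 change of 4 genes under the values as deposited and 16 other settings, with filled symbols where the limma adjusted p was under 0.05. IQGAP1 stays on the right and CALM2 and CALM3 on the left with filled symbols throughout, while IQGAP3 lies near 0, mostly with open symbols, and crosses it when libraries are rescaled to a common sum.

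The genes with the most similar profile to each member were found by the root mean square difference, over the 6 libraries, of log2(FPKM + 1) minus its control mean, among the 4391 genes whose mean reached 10 FPKM. Those nearest to IQGAP1 were LAMA3, a chain of the basement membrane laminin of the epidermis, NFE2L1, a transcription factor of proteasome genes, and RNF6, a ubiquitin ligase. Their differences were 0.024, 0.024 and 0.028. LAMA3 gave 28.9, 27.6 and 27.8 FPKM in control and 43.5, 46.8 and 43.4 FPKM in knockdown replicates 1, 2 and 3. The nearest to IQGAP3 were USP48, TFDP1 and MKI67, the last a marker of dividing cells, with a mean of 33.0 ± 0.288 FPKM in the controls and of 30.7 ± 1.22 FPKM after knockdown, a difference that did not pass (log2 change -0.10, limma adjusted p = 0.0927). As for IQGAP3, MKI67 was called lower once knockdown replicate 2 was left out (limma adjusted p = 0.0105) or the length trend was removed (adjusted p = 2.55e-04), and a common sum turned its sign (0.064). USP48 was called lower only with the length trend removed (limma adjusted p = 0.00995), and TFDP1 only without knockdown replicate 2 (0.00541). A common sum turned the sign of both (0.096 and 0.070). These genes were picked for their likeness to IQGAP3, so a like response is no separate evidence. Nearest to CALM2 were CHTF18, PPT1 and PRCC, and nearest to CALM3 were MMP28, KIF20A, a kinesin of cell division, and VDAC1, a channel of the outer mitochondrial membrane.

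Genes known to act with IQGAPs or calmodulin were described in 8 lists, chosen with earlier results of these data known. Of 106 list genes tested, 41 were called higher and 30 lower, 67.0% in all against 57.4% of all genes tested, with a median log2 change of 0.06 against 0.01. These counts shift with scaling, to 57 higher and 15 lower with a common sum and to 34 higher and 38 lower with the length trend removed. All genes shift too. With a common sum 4868 of 11216 genes tested were called higher and 1835 lower (median 0.14). With the length trend removed 3199 of 11209 were called higher and 3160 lower (median -0.001). Counts and medians of the lists under these settings are to be read beside these values.

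Of 12 GTPases and regulators, 3 rose and 6 fell (median -0.06). CDC42 and RAC1, the GTPases that IQGAP1 and IQGAP2 bind, were called lower with the values as deposited, at 15.7 ± 0.698 against 17.5 ± 0.278 FPKM and at 129.9 ± 10.3 against 153 ± 5.14 FPKM (limma adjusted p = 0.0318 and 0.00719). With a common sum neither passed, and the log2 change was 0.012 for CDC42 and -0.075 for RAC1. CDC42 also lost its call with the length trend removed (adjusted p = 0.173) and without knockdown replicate 1 or any 1 control library (0.0684 to 0.110). ARF6, a GTPase of membrane recycling, rose from 74.0 ± 2.03 to 109 ± 1.44 FPKM, RAP1B, a GTPase that controls adhesion, from 5.88 ± 0.0750 to 8.23 ± 0.412 FPKM, and RASA1, a GTPase-activating protein of RAS, from 6.34 ± 0.235 to 9.91 ± 0.964 FPKM. CDC42 and RAC1 were picked from the list for their known binding after their values were seen. With a common sum 6 genes of this list were called higher and 1 lower (median 0.10), and with the length trend removed 3 higher and 5 lower (median 0.01).

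Of 14 actin and microtubule partners of IQGAP1, 6 rose and 4 fell (median 0.08, and 0.25 with 9 higher and 3 lower with a common sum). Cytoplasmic actin was lower: ACTB fell from 874 ± 16.7 to 563 ± 46.1 FPKM and ACTG1 from 1231 ± 2.33 to 799 ± 53.6 FPKM (limma adjusted p = 3.82e-05 and 3.24e-05). Actin genes resemble each other and have pseudogenes, so the division of reads between them is uncertain. NUDC, a dynein-associated chaperone, fell from 65.9 ± 3.18 to 35.9 ± 4.32 FPKM. Of 9 junction and receptor partners tested, 2 rose and 1 fell (median 0.07). With a common sum 7 were higher and 0 lower, with a median of 0.23 beside 0.14 over all genes tested. With the length trend removed 2 were higher and 3 lower (median -0.039). EGFR, the receptor of epidermal growth factor, rose from 29.6 ± 0.842 to 49.4 ± 4.90 FPKM and MET, that of hepatocyte growth factor, from 26.8 ± 0.734 to 36.5 ± 3.24 FPKM. The related receptor ERBB2, named after its values were seen, did not pass (16.5 and 16.6 FPKM, limma adjusted p = 0.973). The hyaluronan receptor CD44 fell from 53.8 ± 1.26 to 46.5 ± 0.818 FPKM, a call that was lost with a common sum (adjusted p = 0.490).

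Of 14 kinases and related enzymes that IQGAP1 scaffolds, 8 rose and 2 fell (median 0.25). With the length trend removed 4 were higher and 4 lower (median 0.11). Among the 8 with a mean of 5 FPKM or more, 3 were higher and 2 lower (median 0.0037). At that filter 2219 of all 6842 genes tested were called higher and 2292 lower (median -0.00696). PIK3R1, a regulatory subunit of PI3K, rose from 1.48 ± 0.215 to 2.68 ± 0.620 FPKM (limma adjusted p = 0.00253), and PIP5K1A, which makes the lipid substrate of PI3K, from 17.5 ± 0.566 to 23.8 ± 1.85 FPKM. MAP2K2, a kinase of the RAF pathway, fell from 39.1 ± 1.40 to 31.3 ± 3.09 FPKM (adjusted p = 0.00311).

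Of 6 tested genes of calmodulin-like proteins and myosin light chains, none rose and 5 fell (median -0.44), and the 5 that fell were all myosin light chains. MYL6, an essential light chain of the same EF-hand family as calmodulin, fell from 30.1 ± 1.17 to 18.1 ± 2.08 FPKM (limma adjusted p = 3.90e-05). Its relative MYL6B fell from 10.1 ± 0.1303 to 7.14 ± 0.932 FPKM, and MYL9, a regulatory light chain, from 1.47 ± 0.0871 to 0.310 ± 0.143 FPKM. The regulatory light chains MYL12A and MYL12B, which complete the 5, went from 20.9 ± 0.359 to 15.3 ± 0.480 FPKM and from 175.5 ± 7.04 to 133 ± 5.13 FPKM. CALML5, a calmodulin-like protein of differentiating epidermis, did not pass (1.65 ± 0.562 FPKM in the controls, 2.17 ± 0.744 FPKM after knockdown, adjusted p = 0.225). The count for this list was 0 higher and 5 lower with a common sum and 1 higher and 5 lower with the length trend removed.

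Of 17 calmodulin-dependent kinases, calcineurin subunits and regulators tested, 4 rose and 6 fell (median -0.12). With a common sum 5 were higher and 1 lower (median 0.028), and with the length trend removed 2 were higher and 8 lower (median -0.098). PPP3CA, a catalytic subunit of the calmodulin-activated phosphatase calcineurin, rose from 9.74 ± 0.122 to 14.95 ± 0.278 FPKM (limma adjusted p = 1.13e-05). CAMK2D, a calmodulin-dependent kinase, rose as well, from between 1.42 and 1.596 FPKM in the controls to between 1.98 and 2.72 FPKM after knockdown, and DAPK2, a calmodulin-regulated kinase linked to cell death, fell from 1.84 ± 0.178 to 1.17 ± 0.1303 FPKM.

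Of 16 tested calmodulin-binding proteins of the membrane and cytoskeleton, 9 rose and 3 fell (median 0.40, and 0.25 with 9 higher and 4 lower with the length trend removed). The spectrin gene SPTBN1 rose from 20.3 ± 0.442 to 33.1 ± 3.75 FPKM and CAMSAP2, which holds microtubule minus ends, from 8.94 ± 0.123 to 14.6 ± 2.13 FPKM (limma adjusted p = 3.91e-05 and 1.48e-04). NRGN, a small protein whose IQ motif binds calmodulin without calcium, fell from 2.95 ± 0.844 to 0.802 ± 0.514 FPKM (adjusted p = 7.20e-04).

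Of 18 other genes whose proteins carry IQ motifs, 9 rose and 3 fell (median 0.14, and 0.04 with 6 higher and 4 lower when the length trend was removed). The largest rises were those of the unconventional myosins MYO5B and MYO5A, motors that carry vesicles along actin and use calmodulin as light chains, from 2.33 ± 0.231 to 5.39 ± 0.342 FPKM and from 3.07 ± 0.167 to 5.75 ± 0.660 FPKM (limma adjusted p = 8.66e-06 and 5.74e-05). IQCE, a protein of the cilium base, fell from 4.04 ± 0.307 to 2.72 ± 0.0808 FPKM.

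**Figure D5:**
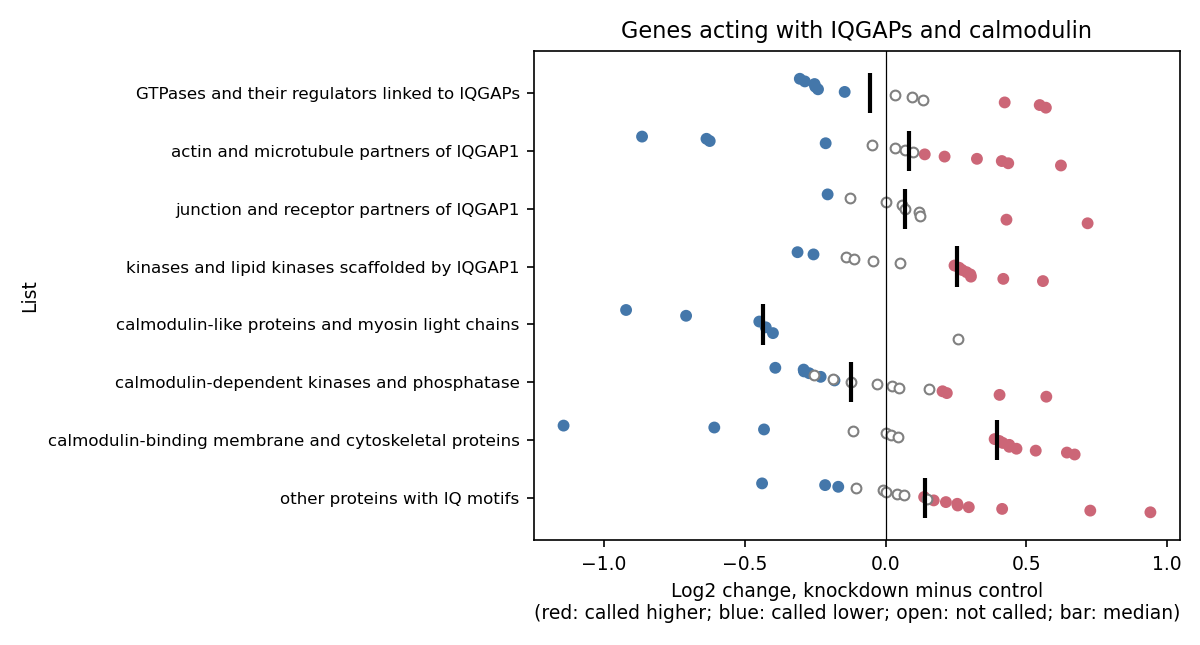
Log2 change of each tested gene of the 8 lists, in red where limma called it higher, in blue where it called it lower and open where it did not, with a bar at the median of the list. The list of calmodulin-like proteins and myosin light chains has no red point and the lowest median, and the list of calmodulin-binding membrane and cytoskeletal proteins has the highest.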

How the data were processed

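The authors deposited FPKM values for 12829 genes in 6 libraries of HaCaT cells. Per the labels' protocols, total RNA was extracted with TRIzol and libraries were made with a TruSeq kit. HISAT2 2.2.1 and GRCh38 were used, per the submitters' processing notes. Which counter, annotation and strand setting were used is not given in the sources used here.

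Whole reads were recovered from the steps of FPKM values within 0.004 reads for all 12829 genes. The implied length of IQGAP2 (7868 bases) was close to its annotated 7904, so its reads carry no hidden divisor. Groups were compared by limma 3.58.1 (R 4.3.3), applied to log2(FPKM + 1) with a mean-variance trend and two-sided tests, Benjamini-Hochberg adjustment over the 11214 genes whose mean reached 0.5 FPKM, and group as the only factor. The procedures were tested on simulated data. The simulation for limma changed few genes, in both directions, and held no trend over length. It therefore does not cover shifts as wide as those seen here. GENCODE v29 gave positions, exon lengths (12818 genes matched) and coding sequences.

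The members and lists were chosen with earlier results of these data known. Named are the 5 members, the 3 largest called changes of each list, the 3 genes nearest in profile to each member above the filter, and the highest marker of each other cell type. Genes said to be picked later are additions, and 2 list genes are not reported here. Alternatives were other pseudocounts, filters and scalings, recovered reads with voom, removal of the length trend, a replicate block and leaving out each library.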

Additional observations from a re-analysis of the deposited data

How the results depend on the processing

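All 16 alternatives kept the direction and call of IQGAP1, CALM2 and CALM3. For IQGAP2 the log2 change ranged from -0.23 to -0.22 when a library was left out, with the call lost in 4 of these 6 settings. Its size depends on the pseudocount because its level is far below it, at -1.26 with 0.1 and -2.86 with recovered reads and voom. IQGAP3 ranged from -0.12 to -0.052 when a library was left out, was called lower with the length trend removed (-0.14), and turned to 0.081 with a common sum of FPKM. A common sum lowered the count of genes called lower from 3121 to 1835 and raised that of genes called higher from 3313 to 4868, moved the median over all genes tested from 0.01 to 0.14, and lowered the count of list genes called lower from 30 to 15. With the length trend removed, the log2 difference of the IQGAP1 to IQGAP3 ratio was 0.65, that of the ratio of CALM2 and CALM3 to IQGAP -0.72, and that of the CALM2 to CALM3 ratio turned to -0.028. With lengths implied by FPKM, chosen after seeing the data, these were 0.66, -0.79 and 0.033, and IQGAP3 was called lower (-0.13). With each library left out in turn these differences ranged from 0.73 to 0.77, from -0.93 to -0.79 and from 0.07 to 0.11. Principal transcript lengths, also chosen then, gave -0.90 for the ratio of CALM2 and CALM3 to IQGAP. The cause of these shifts was not tested.

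The labels do not say whether same-numbered libraries are paired. Over 6842 genes, the deviations of same-numbered libraries correlated at -0.10, -0.06 and 0.06, and those of unlike-numbered libraries at -0.12 to 0.15. These values cannot settle it, because what paired libraries would give is not known. With the replicate block, 3167 genes were called higher and 3024 lower, and no call of a member changed, with IQGAP2 at adjusted p = 0.0486. Depth limits IQGAP2 above all, with 2 to 4 reads in each knockdown library.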
